A study of Pistacia vera with 121 samples.

Results

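Described here are 80 pistachio genes that were abundant early in the shell and the hull of the fruit and scarce in the kernel, chosen from the 37063 gene identifiers beginning with PvKer that the deposited count table holds. They were selected on measured values. Counts were turned into CPM, the count of a gene scaled to a common library total, over the PvKer identifiers and averaged for each tissue and sampling point. A gene was taken when its shell and its hull maximum both fell at 865, 993 or 1106, both reached at least 20 CPM, lay within 2-fold of each other and were both at least 10 times the kernel maximum. The limit of 200 genes was not reached. A further 742 genes met every shell and hull condition and failed only the one on the kernel, and these other early genes serve as the comparison set.

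The study followed the cultivar Kerman of Pistacia vera by RNA sequencing through fruit and seed development. Sampling points are labelled in growing degree days in °C (GDD), a running sum of warmth that tracks development. Shell was sampled at 865, 993, 1106, 1223, 1357, 1508, 1657, 1759, 1881, 2007 and 2139 GDD (35 libraries), hull at these points and at 2284, 2377, 2475 and 2564 GDD (47 libraries), and kernel from 1223 to 2564 GDD at 12 points (39 libraries). There is no kernel library at 865, 993 or 1106 GDD. The early shell and hull maxima were thus set against later kernel values, and kernel levels in the early window are not known. No treatment or genotype other than the cultivar is labelled, and the labels do not say whether libraries of 1 group came from separate trees, so p-values measure the spread between these libraries.

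The shell and the hull are both layers of the fruit wall, which develops from the ovary of the flower. The shell is the endocarp, the inner layer, whose cells thicken and lignify until it is a hard case; the hull is the soft outer layer that stays around it. The kernel is the seed, which grows from the ovule, and in pistachio the wall enlarges well before the seed fills the space inside. None of the 38315 identifiers in the table matched the RefSeq gene table used for names, so the genes are given by identifier and no function is assigned to any of them.

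The rule left out 14 libraries, and 107 were kept: 34 of shell, 44 of hull and 29 of kernel. Kept shell libraries held 7654046 to 16586003 counts on PvKer identifiers, kept hull libraries 7680501 to 18115772, and kept kernel libraries 850623 to 12312036. By its overall profile every kept library lay nearest to a group of its own labelled tissue. In shell 30 of the 34 kept libraries lay nearest to their own sampling point. The same held for 40 of the 44 kept hull libraries and 23 of the 29 kept kernel libraries. The rest lay nearest to another point of the same tissue. Of those left out, 6 lay nearest to a group of another tissue: 1 labelled shell, 3 labelled hull and 2 labelled kernel. Among the 3 shell libraries at 865 GDD, replicate 3 stood apart, lying nearest to shell at 1106 GDD, and replicate 1 alone was high for a few genes. Counts and named genes of shell that rest on these libraries are given with and without them.

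The selected levels were as follows. Shell maxima ran from 20.3 to 1681 CPM with a median of 128.0, hull maxima from 21.4 to 2063 CPM with a median of 136.6, and kernel maxima from 0.239 to 95.8 CPM with a median of 5.27. The hull maximum was at least 500 CPM in 12 genes, between 100 and 500 CPM in 38, between 50 and 100 CPM in 17 and below 50 CPM in 13. The lower of the shell and hull maxima was 19.2 times the kernel maximum at the median and 253.9 times at most; 42 genes lay below 20 times, 12 reached at least 50 times and 5 at least 100 times. The shell maximum was the higher one in 22 genes and the hull maximum in 58. These values chose the genes and carry no test.

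Just inside and just outside each threshold the values were close. PvKer.12.g283770, with a shell maximum of 20.3 CPM, was taken, and PvKer.13.g327910, with 19.8 CPM, was not; 168 genes failed on level alone. PvKer.06.g152420, whose maxima differed by 1.97-fold, was taken, and PvKer.01.g015320, at 2.02-fold, was not; 51 genes failed on that alone. PvKer.03.g092770, at 10.04 times its kernel maximum, was taken, and PvKer.12.g295830, at 9.84 times, was not. A further 490 genes met every condition but the timing of the maxima.

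Together the 80 genes took up a share of the PvKer counts that was largest at 993 GDD and smallest near 1508 GDD in both fruit tissues. In shell their summed share averaged 0.809 ± 0.251% at 865 GDD, 1.48 ± 0.088% at 993 GDD and 0.39 ± 0.058% at 1508 GDD (SD, n = 3 each). In hull it averaged 1.69 ± 0.307% at 865 GDD, 1.85 ± 0.187% at 993 GDD and 0.372 ± 0.072% at 1508 GDD (SD, n = 3 each). The hull share stood again at 0.715 ± 0.138% at 1657 GDD and at 0.875 ± 0.033% at 2564 GDD (SD, n = 3 each). In kernel the group means stayed between 0.0287% and 0.0621%. In whole-tissue libraries, fewer cells of a type and less RNA per cell cannot be told apart. The early window and the low kernel share follow from the selection, and what the selection did not set is the course after 1106 GDD.

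**Figure D1:**
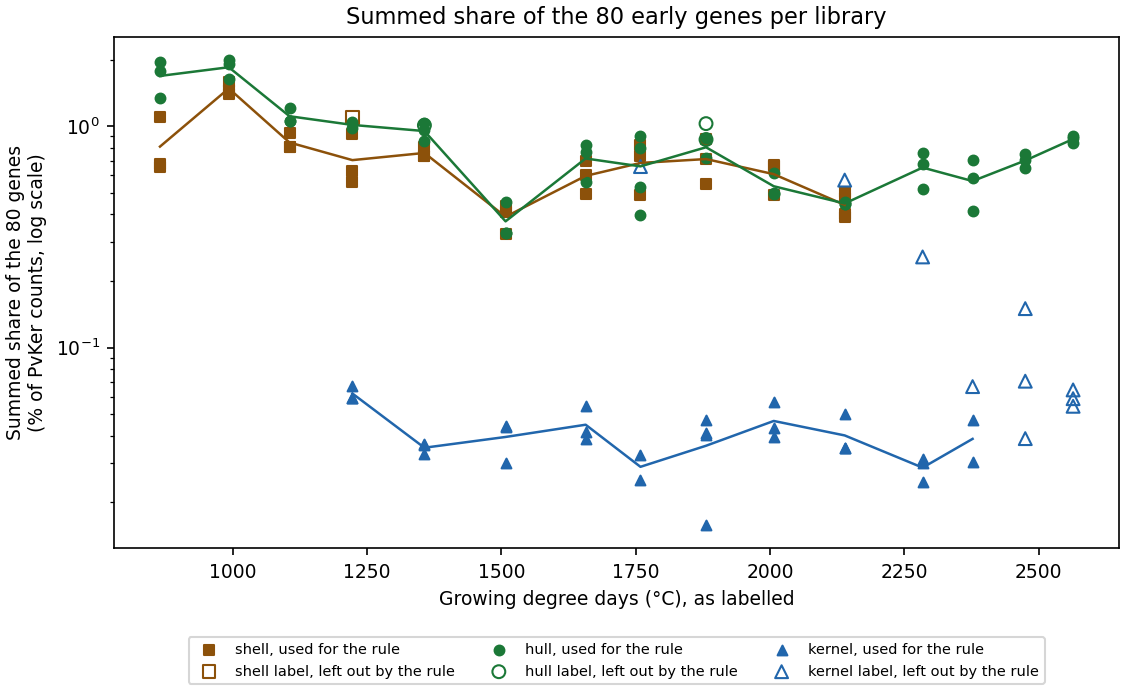
Summed share of the 80 genes (% of PvKer counts, log axis) against growing degree days (°C) for each shell, hull and kernel library; filled points are the 107 kept libraries, open points the 14 left out, and lines join group means. Kept shell and hull libraries lie between 0.326% and 1.99%, kept kernel libraries between 0.0158% and 0.0672%, and some open kernel points lie among the fruit tissues.

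The most abundant genes show the shape in single libraries. PvKer.04.g110490 had the highest shell maximum and the second highest hull maximum. In shell it had 182.3, 162.1 and 830.8 CPM at 865 GDD, 1563, 1531 and 1950 CPM at 993 GDD and 344.0, 176.2 and 314.6 CPM at 1508 GDD. In hull it had 1479, 2049 and 2272 CPM at 993 GDD, 193.5, 261.4 and 162.7 CPM at 1508 GDD and 1373, 1472 and 1451 CPM at 2564 GDD. Its hull level at the last point was thus far above that at 1508 GDD, with no overlap between the libraries. Kernel libraries at 1223 GDD had 34.7, 16 and 47.5 CPM of it.

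PvKer.08.g192230 had the highest hull maximum. In hull it had 1782, 2177 and 2231 CPM at 993 GDD, 219.8, 365.9 and 215.0 CPM at 1508 GDD and 389.0, 261.7 and 288.0 CPM at 2139 GDD. In shell it had 1109, 959.1 and 1281 CPM at 993 GDD, 308.6, 201.2 and 320.0 CPM at 1508 GDD, and 534.4, 462.1, 484.5 and 794.6 CPM at 2139 GDD. Every shell library at 2139 GDD lay above every hull library at that point. At 2007 GDD its means were 1048 ± 249.2 CPM in shell and 1073 ± 121.02 CPM in hull (SD, n = 3 each), and over both points the shell and hull levels were not called different (log2 fold change 0.39 ± 0.25, edgeR, adjusted p = 0.248).

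The other abundant genes differed in how sharply they peaked. PvKer.11.g277690 was highest at 865 GDD, with 398.9, 363.5 and 403.0 CPM in shell and 620.8, 891.1 and 761.8 CPM in hull. At 1657 GDD it was at 12.6, 10.5 and 18.8 CPM in shell and at 26.8, 14.2 and 24.2 CPM in hull. PvKer.03.g086470 changed least among these genes. Its group means stayed at or above 183.0 CPM in shell and 224.1 CPM in hull, and its maxima were 525.3 CPM in shell and 703.1 CPM in hull. PvKer.08.g206510 reached 467.5 CPM in shell and 833.1 CPM in hull at 993 GDD, and PvKer.09.g225760 reached 831.0 CPM in shell at 993 GDD and 739.0 CPM in hull at 865 GDD.

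**Figure D2:**
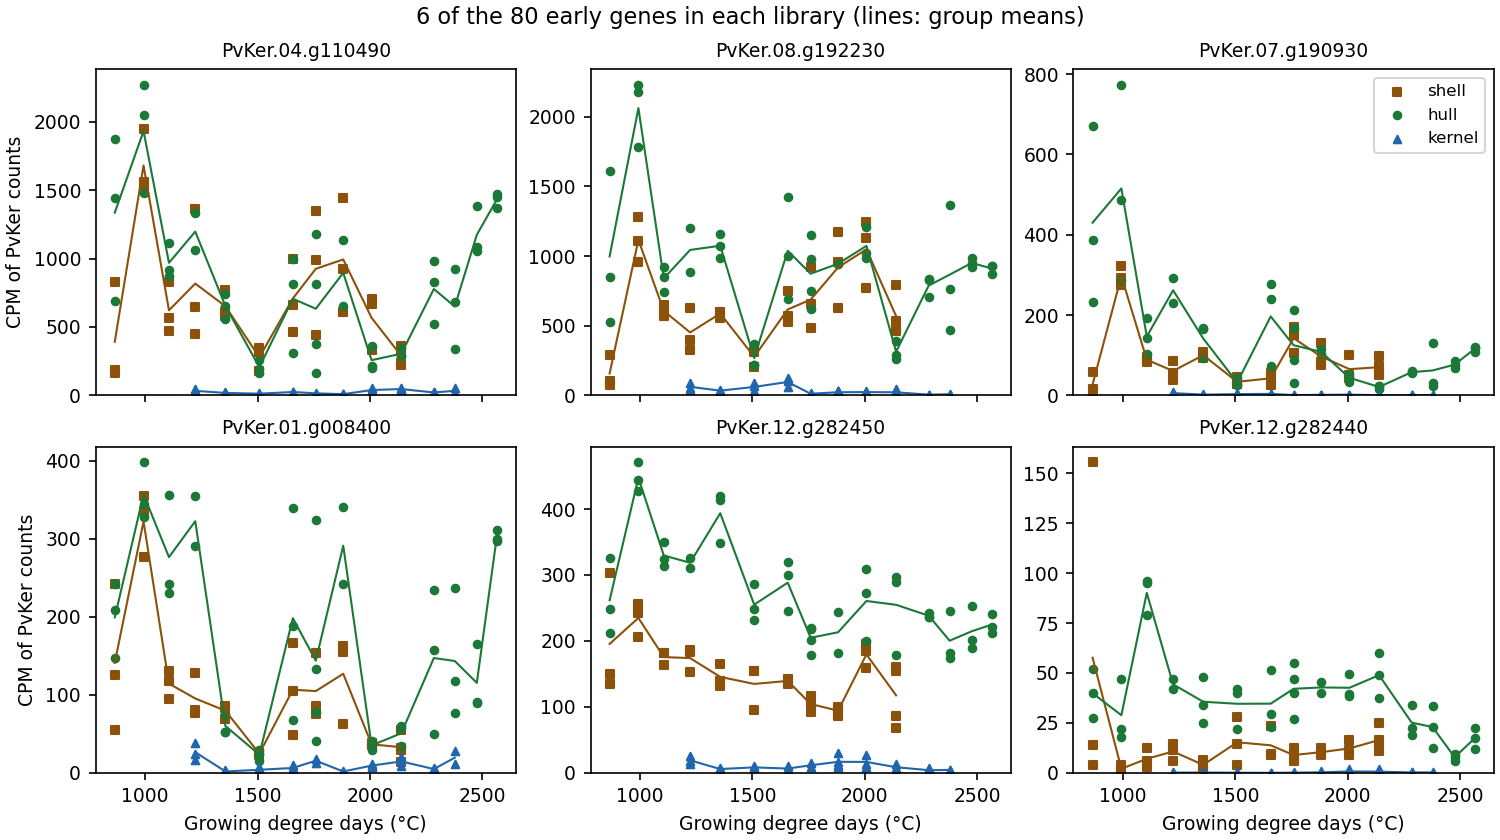
CPM of 6 of the 80 genes in each kept library against growing degree days (°C); points are libraries of shell, hull and kernel and lines join group means. PvKer.04.g110490 returns in hull to 1373 to 1472 CPM at 2564 GDD, and PvKer.12.g282450 runs lower in shell than in hull at 1223 and 1357 GDD.

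At the median of the 80 genes the shape was an early maximum, a low point at 1508 GDD, a partial return and a second low at 2007 and 2139 GDD. The lowest mean of a gene fell at 1508 GDD in 23 genes in shell and 27 in hull. It fell at 2007 GDD in 14 and 16, and at 2139 GDD in 15 and 10. Of the 742 other early genes, 195 in shell and 253 in hull were lowest at 1508 GDD, shares close to those of the 80 genes. At 2007 GDD 120 of them in shell and 81 in hull were lowest. At 2139 GDD 80 of them in shell and 36 in hull were lowest. These later shares lay below those of the 80 genes, except in shell at 2007 GDD, where they were close. The median gene in shell stood at 62.7% of its own shell maximum at 865 GDD, 100% at 993 GDD, 52.1% at 1106 GDD, 39.9% at 1223 GDD, 21.4% at 1508 GDD, 39% at 1759 GDD and 22.2% at 2139 GDD. The median gene in hull stood at 99.7% of its own hull maximum at 865 GDD, 92.2% at 993 GDD, 54.2% at 1106 GDD, 42.1% at 1223 GDD, 14.4% at 1508 GDD, 34.5% at 1881 GDD, 17.5% at 2007 GDD and 29.7% at 2564 GDD. Among the other early genes the median at 1508 GDD was 44.4% in shell and 38.4% in hull. The 1508 GDD mean was below the means at 1223, 1357, 1657 and 1759 GDD in 57.5% of the 80 genes in shell and 67.5% in hull. The same held for 40.4% in shell and 53.0% in hull of the other early genes, and for 28.2% in shell and 38.5% in hull of the 9595 genes with both maxima at 20 CPM or more. In 43 of the 80 genes it held in both tissues.

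**Figure D3:**
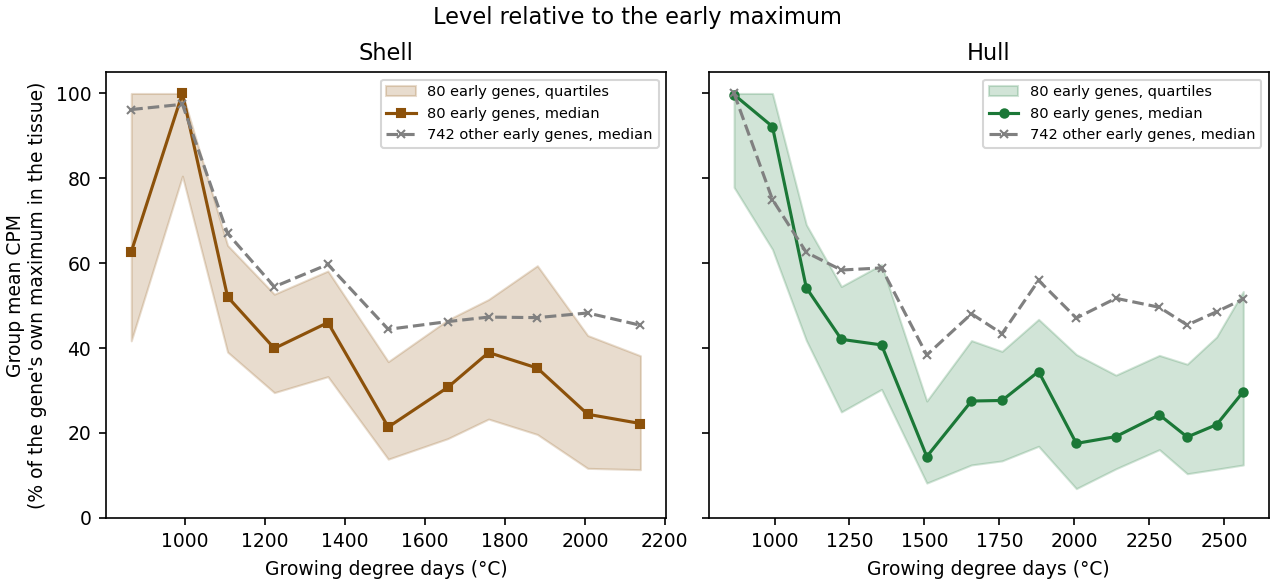
Group mean CPM as a percentage of each gene's own maximum in shell (left) and hull (right) against growing degree days (°C); solid lines are medians of the 80 genes with quartiles shaded, dashed lines medians of the 742 other early genes. At 1508 GDD the 80 genes lie at a median of 21.4% in shell and 14.4% in hull, and the other early genes at 44.4% and 38.4%.

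Individual genes followed this shape to different degrees. The shell and hull courses of the same gene, over the 11 points both tissues share, had a median Pearson r of 0.86, from 0.087 to 0.988, with 52 genes at 0.8 or more and 7 below 0.5. Between different genes the median r was 0.48 over 11 shell points and 0.57 over 15 hull points. These correlations share libraries and, through the selection, an early maximum, so they are descriptions. In hull, 23 genes stood at 50% or more of their maximum at 2564 GDD.

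**Figure D4:**
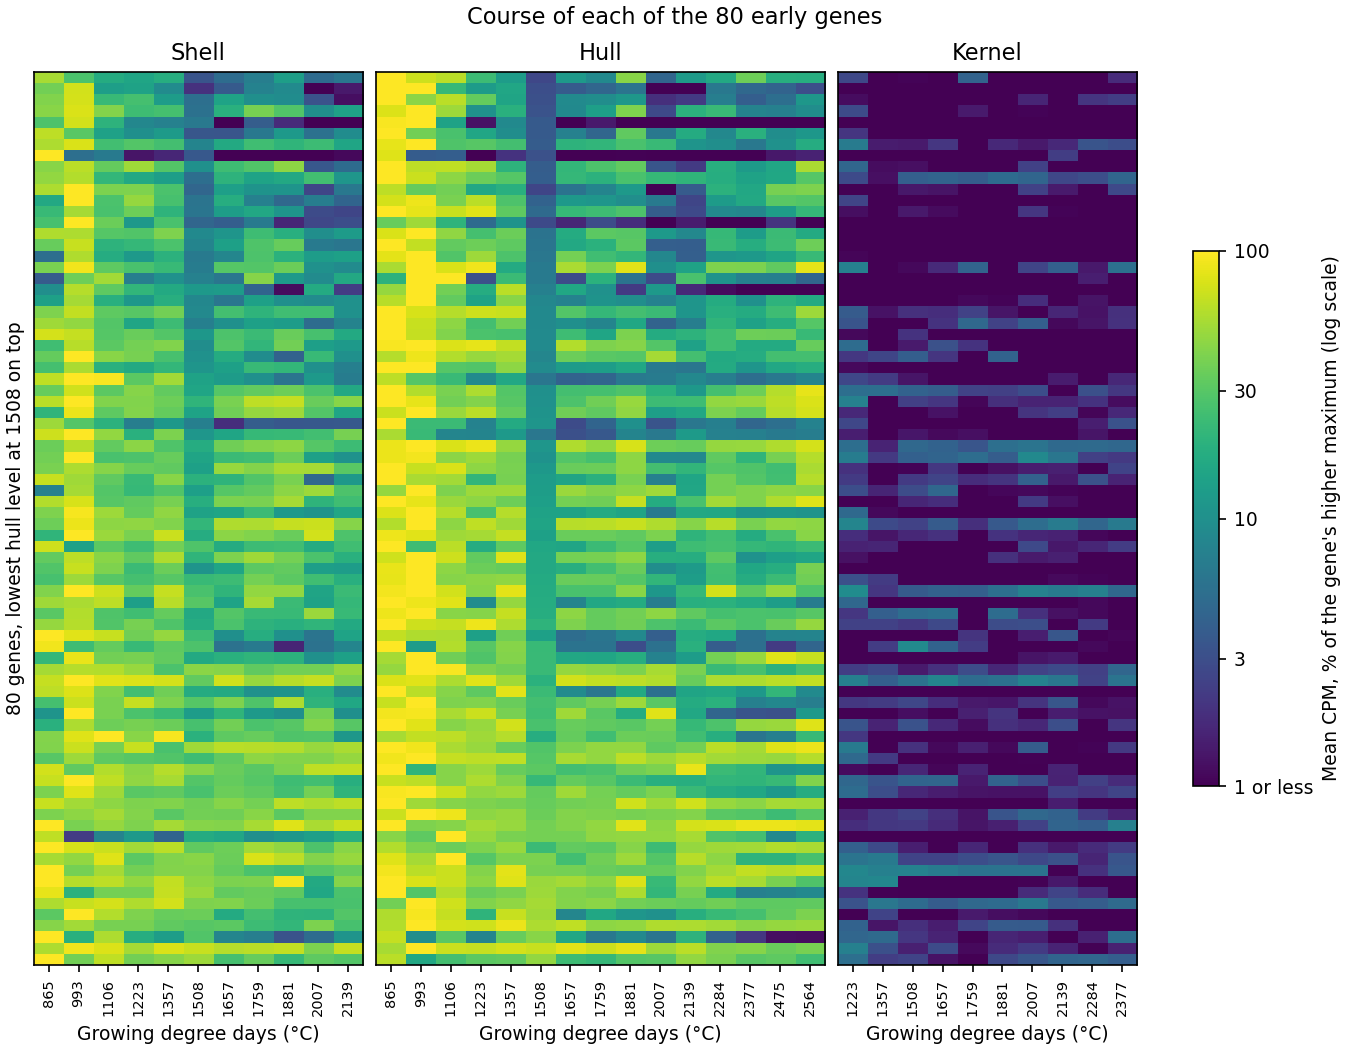
Mean CPM of each of the 80 genes (one line of the map per gene, ordered by its hull level at 1508 GDD) in shell, hull and kernel at each sampling point with kept libraries (°C), as a percentage of the gene's higher maximum on a log colour scale. Early points are bright in shell and hull, the 1508 GDD column is dark for most genes, and kernel stays at 10% or less.

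Differences between sampling points and tissues were tested with edgeR's quasi-likelihood test over all 19931 genes kept in shell and hull, and a gene was called when its Benjamini-Hochberg adjusted p was below 0.05 and its log2 fold change at least 1 in size. All 80 genes passed the filter on low counts there. Beside each count from this test stands the percentage of all tested genes called in the same direction. Counts shared by both tissues, and counts under other settings or with libraries left out, are given for the 80 genes alone. The values at 865, 993 and 1106 GDD also chose the genes, but did not set which of these points was higher in a gene, so counts and fold changes within that window are given as descriptions of its inner order, without p-values, and nothing is read from them against all genes. Library sizes were scaled by TMM, edgeR's correction for a few abundant genes taking up much of a library; without TMM the median fold change of all genes moved by -0.58 on the log2 scale in the kernel comparison and by -0.18 to 0.20 in the others.

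Within the early window more genes had their maximum at 993 GDD in shell than in hull. The shell mean was highest at 865 GDD in 21 genes, at 993 GDD in 53 and at 1106 GDD in 6, and the hull mean at 865 GDD in 39, at 993 GDD in 38 and at 1106 GDD in 3. The other early genes had their shell maximum at 865 GDD in 46.6% of cases and their hull maximum there in 67.4%. At 993 against 865 GDD in shell, 29 of the 80 genes were higher (36.2%; 6.53% of all genes) and 9 lower (8.67% of all genes), with a median log2 fold change of 0.86. At 993 against 865 GDD in hull, 6 were higher (3.5% of all genes) and 10 lower (8.48% of all genes), and without TMM 4 and 11. The genes called higher in both tissues were 3, which is 10.3% of the shell calls and 50% of the hull calls. Without replicate 3 of every group the hull rises were 2.

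PvKer.07.g190930 had the largest such shell difference, with 275, 292.8 and 322.5 CPM in shell at 993 GDD against 7.70, 15.1 and 58.5 CPM in shell at 865 GDD. All libraries at 993 GDD lay above all at 865 GDD. The log2 fold change was 3.64, and it was 3.19 without replicate 1 and 4.90 without replicate 3 of shell at 865 GDD. PvKer.15.g373000 was lower in level, with 57.4, 21.7 and 33.6 CPM in shell at 993 GDD against 1.44, 3.96 and 6.26 CPM at 865 GDD, a log2 fold change of 3.43 that was 3.05 without replicate 1 and 3.97 without replicate 3. In hull PvKer.03.g086470 had 821.8, 567.6 and 719.8 CPM at 993 GDD against 336.9, 261.9 and 189.5 CPM at 865 GDD, with no overlap and a log2 fold change of 1.53. PvKer.15.g373000 was also higher in hull, by 2.47 on the log2 scale, a call that was lost without replicate 1 or replicate 3 of every group.

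Some genes were lower at 993 than at 865 GDD. PvKer.01.g025270 had 2.47, 2.29 and 4.28 CPM in shell at 993 GDD against 115.4, 35.6 and 18.1 CPM in shell at 865 GDD. Its log2 fold change was -4.02, and it was -2.93 without replicate 1 and -4.41 without replicate 3 of shell at 865 GDD. In hull it had 1.65, 2.98 and 1.82 CPM at 993 GDD against 26.7, 35.1 and 73.9 CPM at 865 GDD, a log2 fold change of -4.19. No library at 993 GDD overlapped with one at 865 GDD in either tissue. PvKer.07.g169510 had 69.9, 73.4 and 57.3 CPM in shell at 993 GDD against 488.6, 450.0 and 137.4 CPM at 865 GDD, a log2 fold change of -2.24 that was -1.93 without replicate 1 and -2.61 without replicate 3. PvKer.03.g092770 had 6.01, 3.83 and 4.24 CPM in hull at 993 GDD against 16.3, 36.5 and 57.2 CPM at 865 GDD.

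At 1106 against 865 GDD more of the genes were called lower in hull than in shell. In shell 8 were higher (4.76% of all genes) and 8 lower (3.39% of all genes), with a median log2 fold change of -0.05; scaled by library size alone, without TMM, 6 were higher and 11 lower. In hull 1 was higher (4.8% of all genes) and 24 lower (30%; 6.49% of all genes), with a median of -0.73 and 11 genes with a fold change above 0. PvKer.08.g192230 had 646.6, 605.8 and 566.7 CPM in shell at 1106 GDD against 104.1, 77.3 and 290.3 CPM in shell at 865 GDD. Its log2 fold change was 2.03, and it was 1.76 without replicate 1 and 2.85 without replicate 3 of shell at 865 GDD. PvKer.15.g373000 was higher by 3.87 in shell and 2.35 in hull on the log2 scale; the shell call was lost without replicate 1 of every group and the hull call without replicate 2 or 3. PvKer.01.g025270 had between 1.68 and 4.94 CPM in the 6 libraries at 1106 GDD, with log2 fold changes of -3.85 in shell, which was -2.79 without replicate 1 of shell at 865 GDD, and -4.28 in hull. PvKer.05.g135180 had 2.52, 3.78 and 3.00 CPM in hull at 1106 GDD against 20.2, 21.4 and 22.6 CPM at 865 GDD. PvKer.03.g092770 had a log2 fold change of -1.34 in shell, a call that was kept in 7 of 13 alternatives, which ran from -2.01 to -0.91. The genes called lower in both tissues were 4, or 50% of the shell calls and 16.7% of the hull calls.

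The tissues were compared within this window by the shell change minus the hull change, on values that also chose the genes. From 865 to 993 GDD the shell change was the higher one in 11 genes (3.22% of all genes) and the lower one in 2 (2.39% of all genes). From 865 to 1106 GDD it was higher in 9 genes (2.13% of all genes) and lower in 1 (1.56% of all genes). PvKer.03.g081450 had 85.8, 116.9 and 134.8 CPM in shell at 993 GDD against 1.69, 7.71 and 27.1 CPM in shell at 865 GDD. In hull it had 83.8, 122.9 and 109.0 CPM at 993 GDD against 139.4, 107.3 and 65.1 CPM at 865 GDD. The libraries of the 2 points overlapped in hull and did not in shell. Its changes differed by 3.27 on the log2 scale, and by 2.81 without replicate 1 and 4.66 without replicate 3 of shell at 865 GDD. For PvKer.07.g190930 the difference was 3.27 at 993 GDD and 3.40 at 1106 GDD; both calls were lost without replicate 1 of every group, and that of PvKer.03.g081450 at 1106 GDD without replicate 1 or 2. PvKer.03.g086470 went the other way, with a log2 difference of -1.08 at 993 GDD, which was -0.90 without replicate 1 of shell at 865 GDD.

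These early counts depended on single libraries. The matching shares of all genes are not given here, so whether the shifts are particular to the 80 genes cannot be told. The summed share was 1.10% in replicate 3 of shell at 865 GDD, against 0.657% and 0.672% in the others, and replicate 3 was the highest of the 3 in 58 of the 80 genes. Without it the genes higher in shell at 993 GDD numbered 41, and those with a higher shell change were 32 at 993 GDD and 22 at 1106 GDD. Without replicate 1 of shell at 865 GDD these counts were 18, 7 and 7, and the genes higher in shell at 1106 GDD were 4, not 8. Replicate 1 had 155.4 CPM of PvKer.12.g282440, against 3.68 and 13.8 CPM in the other shell libraries at 865 GDD, and its lower shell change was called at 993 GDD (-4.36) and at 1106 GDD (-4.18) with replicate 1 and not without it. Leaving out replicate 1, 2 or 3 of every group gave 1, 2 and 13 genes higher in shell at 1106 GDD, 1, 4 and 25 with a higher shell change at 993 GDD, and 1, 4 and 19 at 1106 GDD. The genes lower at 1106 GDD were 4 in shell without replicate 2, and 15 in hull without replicate 1 and 12 without replicate 2.

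From 1223 to 1508 GDD a large minority of the genes fell in each tissue, in a window whose values the rule used only in so far as the maxima had to lie before it. At 1508 against 1223 GDD in shell, 28 of 80 fell (35%; 6.63% of all genes, 9.57% of the other early genes) and 1 rose (6.21% of all genes). The same comparison in hull had 36 falling (45%; 8.73% of all genes, 21.2% of the other early genes) and 2 rising (8.61% of all genes). The median log2 fold change was -0.71 in shell and -1.03 in hull, beside -0.01 and -0.02 over all genes tested, and 15 genes in shell and 14 in hull had a fold change above 0. The falls shared by both tissues were 21, which is 75% of the shell calls and 58.3% of the hull calls. The matching share of all genes is not given here, so this overlap is a description. Hull libraries at 1508 GDD held 8372885 to 12374471 PvKer counts and those at 1223 GDD 9428893 to 12909172, so the depths overlapped. The shell falls were 10 without replicate 1 of every group and 16 without replicate 2.

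PvKer.09.g218210 had the largest hull fall. It had 27.8, 31.5 and 18.7 CPM in hull at 1508 GDD against 420.4 and 430.4 CPM in hull at 1223 GDD, and the log2 fold change was -3.90 ± 0.72 (SE; edgeR, adjusted p = 2.61e-05). PvKer.05.g118480 fell in both tissues. It had 12.6, 16.3 and 18.4 CPM in shell at 1508 GDD against 208.5, 74.2 and 104.0 CPM in shell at 1223 GDD, a log2 fold change of -2.99 ± 0.58 (SE; edgeR, adjusted p = 8.03e-05). In hull it had 11, 13.2 and 9.62 CPM at 1508 GDD against 221.6 and 111.3 CPM at 1223 GDD, a log2 fold change of -3.76. The libraries of the 2 points were apart in both tissues. PvKer.03.g087640 fell in shell to 5.07, 6.62 and 6.26 CPM at 1508 GDD, against 65.7, 43.9 and 50.7 CPM at 1223 GDD.

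A few genes ran against this fall. PvKer.07.g169510 rose in hull, with 120.9, 272.9 and 80.2 CPM at 1508 GDD against 27 and 30.2 CPM at 1223 GDD, a log2 fold change of 2.59 ± 0.51 (SE; edgeR, adjusted p = 6.51e-05). PvKer.06.g153990 also rose in hull, with 46.1, 59.8 and 49.8 CPM at 1508 GDD against 16 and 24.2 CPM at 1223 GDD. The fold changes of the 2 tissues differed in few genes: the shell change was higher in 1 (0.276% of all genes) and lower in 1 (1.26% of all genes). The first, PvKer.08.g196840, had 110.9, 89.9 and 100.2 CPM in shell at 1508 GDD against 338.2, 195.8 and 244.2 CPM at 1223 GDD, and in hull 56.3, 83.8 and 55.4 CPM at 1508 GDD against 528.5 and 492.4 CPM at 1223 GDD. The second, PvKer.06.g153990, had a shell change lower by 1.63. Both calls were lost when replicate 1, 2 or 3 of every group was left out and when all labelled libraries were used, and the first also without replicate 4.

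After 1508 GDD part of the set rose again in both tissues. At 1657 against 1508 GDD in shell, 15 genes rose (18.8%; 4.99% of all genes, 5.39% of the other early genes) and 7 fell (7.28% of all genes). In hull 23 genes rose over that interval (28.7%; 7.93% of all genes, 11.2% of the other early genes) and 11 fell (9.64% of all genes). The genes that rose in both tissues were 13, or 86.7% of the shell calls and 56.5% of the hull calls, again without a matching share of all genes. This comparison shares its 1508 GDD libraries with the one before it, so a low value there enters both. Without replicate 3 of every group 9 rose in shell and 15 in hull. The shell rises were 8 without replicate 1 and 7 without replicate 2, and the hull falls 6 without replicate 2.

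PvKer.01.g008400 rose in both tissues. In shell it had 105.2, 48.3 and 166.4 CPM at 1657 GDD against 25.9, 22.6 and 25.3 CPM at 1508 GDD, a log2 fold change of 2.09 ± 0.52 (SE; edgeR, adjusted p = 0.00217). In hull it had 68.1, 339.0 and 187.9 CPM at 1657 GDD against 15.6, 29.8 and 24.6 CPM at 1508 GDD, a log2 fold change of 2.88 ± 0.54 (SE; edgeR, adjusted p = 2.64e-05). The later libraries were all higher than the earlier ones and far more spread, and the shell call was lost without replicate 3. PvKer.04.g101050 rose in shell to 38.5, 49.6 and 72.8 CPM, against 13.7, 14.8 and 14.5 CPM, and PvKer.01.g032960 rose in hull to 26.1, 42.8 and 51.8 CPM, against 6.21, 8.77 and 3.80 CPM.

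The abundant early gene PvKer.11.g277690 fell in both tissues over this interval. It had 12.6, 10.5 and 18.8 CPM in shell at 1657 GDD against 64.4, 60.4 and 39.9 CPM at 1508 GDD, a log2 fold change of -1.99 ± 0.27 (SE; edgeR, adjusted p = 1.39e-07), and the fall in hull was 2.13. PvKer.06.g153990, which had risen in hull at 1508 GDD, fell to 8.49, 8.82 and 7.87 CPM in hull at 1657 GDD, against 46.1, 59.8 and 49.8 CPM at 1508 GDD. PvKer.03.g092770 fell in shell to 1.69, 1.66 and 2.91 CPM, against 11.7, 9.65 and 9.02 CPM.

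**Figure D5:**
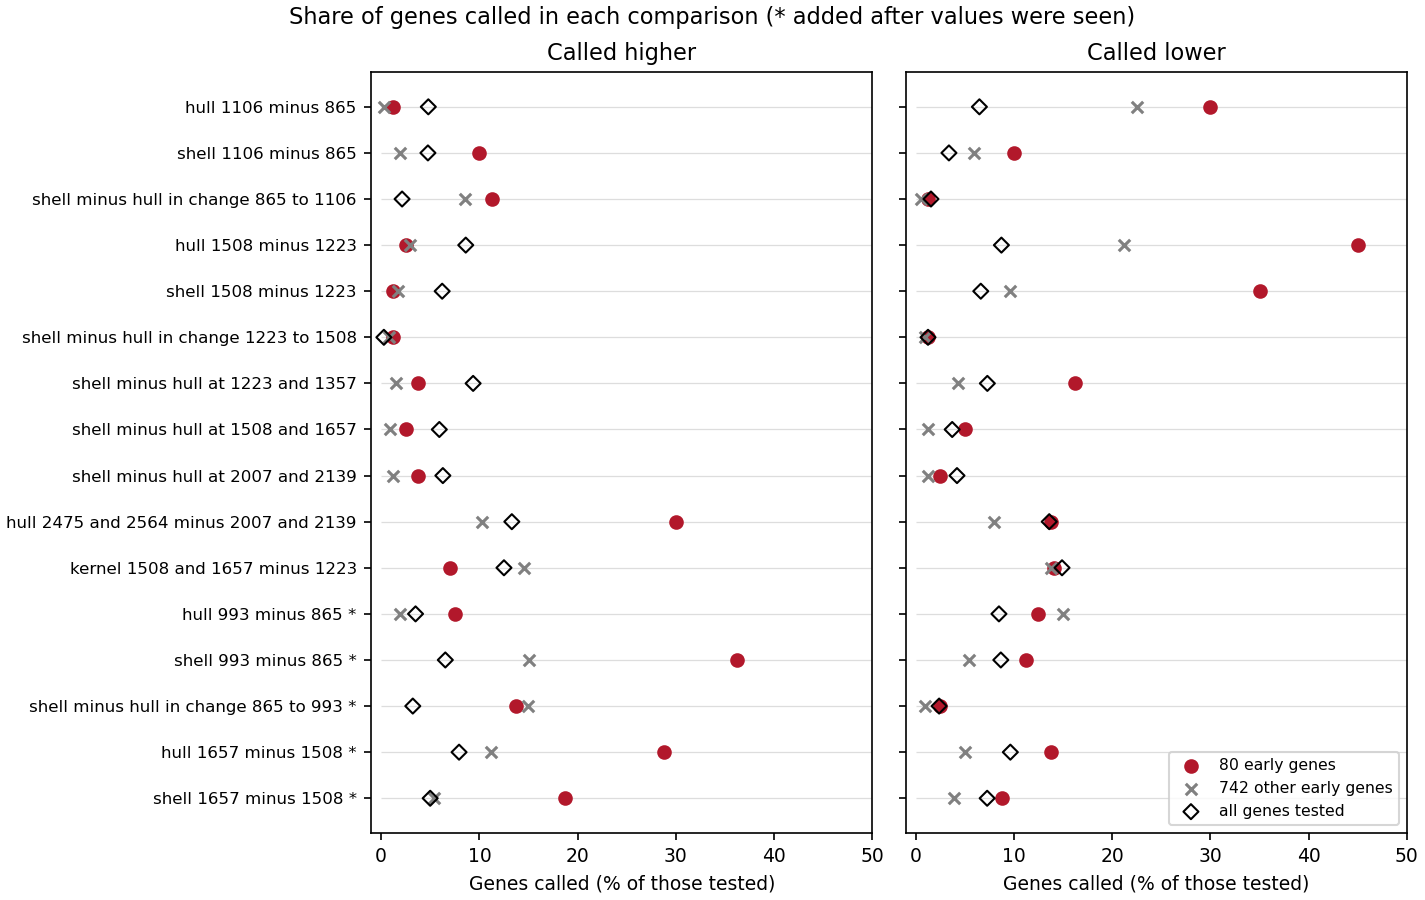
Percentage of genes called higher (left) and lower (right) in each comparison, for the 80 genes (filled circles), the 742 other early genes (crosses) and all genes tested (open diamonds). At 1508 against 1223 GDD 35% of the 80 genes are called lower in shell and 45% in hull, beside 6.63% and 8.73% of all genes.

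Beyond the early window the shell and hull levels of these genes were compared directly at 3 pairs of points. At 1223 and 1357 GDD, 3 genes were higher in shell than in hull (9.36% of all genes) and 13 lower (16.2%; 7.3% of all genes), with a median log2 fold change of -0.33. At 1508 and 1657 GDD, 2 were higher in shell (5.92% of all genes) and 4 lower (3.72% of all genes). At 2007 and 2139 GDD, 3 were higher in shell (6.28% of all genes) and 2 lower (4.21% of all genes). Apart from the 13 lower at the first pair, these shares lie near or below those of all genes. The rule held the 2 tissues within 2-fold at their maxima, where shell stood at 0.73 times hull at the median. Whether the 13 go beyond that difference was not tested. Without TMM the median log2 fold change at 1223 and 1357 GDD was -0.17. At 1508 and 1657 GDD the median was -0.09 with TMM and 0.11 without. Without replicate 3 of every group the 13 were 8, and at 1508 and 1657 GDD 7 were lower; without replicate 2, 7 were higher at 1508 and 1657 GDD and 1 at 2007 and 2139 GDD. Without replicate 1 of every group 1 was higher at 1508 and 1657 GDD, and without replicate 3, 4 were lower at 2007 and 2139 GDD.

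PvKer.07.g166100 was higher in shell at both earlier pairs. At 1223 and 1357 GDD it had 73.3, 73.9, 75.3, 133.8, 119.7 and 120.7 CPM in shell against 16.3, 26.3, 36.6, 37.7 and 38.23 CPM in hull, and the log2 fold change was 1.60 ± 0.23 (SE; edgeR, adjusted p = 4.30e-08). At 1508 and 1657 GDD it had 21.7 to 42.3 CPM in shell against 6.56 to 18.6 CPM in hull, a log2 fold change of 1.18 that was 0.99 without replicate 1 of every group. PvKer.05.g135180 was higher in shell at all 3 pairs, by 1.32, 1.36 and 1.78 on the log2 scale in order of time. At 2007 and 2139 GDD its 7 shell libraries ran from 8.17 to 20.4 CPM and its 6 hull libraries from 0.591 to 6.92 CPM, with a log2 fold change of 1.78 ± 0.27 (SE; edgeR, adjusted p = 6.34e-07).

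Genes with consecutive identifiers were among the lowest in shell against hull. PvKer.12.g282440 and PvKer.12.g282450 are the only consecutive pair among the 80 genes. PvKer.12.g282440 met the rule through replicate 1 of shell at 865 GDD, with 155.4 CPM. Its shell mean at 865 GDD was 57.6 CPM, with 3.68 CPM in the lowest library. Its shell means were 2.05 CPM at 993 GDD and 7.01 CPM at 1106 GDD, below the 20 CPM required. An early shell maximum of this gene thus rests on that 1 library. At 1223 and 1357 GDD PvKer.12.g282440 had 2.25 to 14.5 CPM in shell against 25 to 47.9 CPM in hull, a log2 fold change of -2.78 ± 0.46 (SE; edgeR, adjusted p = 1.51e-06). Over the same points PvKer.12.g282450 had 131.4 to 185.5 CPM in shell against 310.9 to 419.3 CPM in hull, a log2 fold change of -1.32 ± 0.17 (SE; edgeR, adjusted p = 4.86e-09). The tissues did not overlap for either gene. At 1508 and 1657 GDD both were again called lower in shell, PvKer.12.g282440 with a log2 fold change of -1.47 and libraries that overlapped, and PvKer.12.g282450 with one of -1.19 that was -0.98 without TMM. At 2007 and 2139 GDD PvKer.12.g282440 was called, with -1.72, and PvKer.12.g282450 was not, with -0.85. Their courses were not alike, with r of -0.13 over the 11 shell points and 0.35 over the 15 hull points. By contrast PvKer.02.g041010 and PvKer.02.g041050, 4 identifiers apart, had r of 0.89 over the shell points and 0.94 over the hull points. Reads that similar neighbouring genes share could be divided between them in counting, and how they were treated is not given in the sources used here.

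Late in hull development the genes moved in both directions. At 2475 and 2564 against 2007 and 2139 GDD, 24 genes rose (30%; 13.3% of all genes, 10.2% of the other early genes) and 11 fell (13.8%, near the 13.6% of all genes), with a median log2 fold change of 0.52. PvKer.03.g087640 had 46.6, 49.9, 57.5, 57.3, 46.5 and 57 CPM at the later points against 0.591, 2.03, 1.36, 6.38, 4.34 and 3.98 CPM at the earlier ones. The log2 fold change was 4.34 ± 0.55 (SE; edgeR, adjusted p = 1.49e-09). PvKer.13.g320730 was higher again at the last point. It had 22.3, 22.9 and 28.7 CPM at 2475 GDD and 75.2, 103.0 and 93.8 CPM at 2564 GDD, against 3.05 to 6.18 CPM at 2007 and 2139 GDD, and its log2 fold change was 3.42 ± 0.61 (SE; edgeR, adjusted p = 4.07e-06).

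The late falls in hull were as clear-cut in single genes. PvKer.07.g169510 had 3.35, 3.46, 5.88, 3.09, 4.30 and 5.18 CPM at 2475 and 2564 GDD against 19.6, 22.6, 22.8, 71.8, 68.0 and 71.8 CPM at 2007 and 2139 GDD, a log2 fold change of -3.22 ± 0.33 (SE; edgeR, adjusted p = 4.35e-12). PvKer.08.g191380 had 0.0891 to 0.740 CPM at the later points against 16.1, 22.7 and 16.5 CPM at 2007 GDD and 1.53, 3.05 and 3.38 CPM at 2139 GDD, so most of its fall had taken place by 2139 GDD. Its log2 fold change was -4.25 ± 0.54 (SE; edgeR, adjusted p = 2.22e-09).

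In kernel the genes were scarce by selection, and 46 of the 80 lacked a count in at least 1 of the 29 kept kernel libraries. A count of 0 allows up to 3 counts, which is 0.244 to 3.53 CPM at the depths of these libraries; this limit covers counting error only. The kernel maximum fell at 1223 GDD, the first kernel point, in 34 genes and at 2007 GDD in 11. At 1508 and 1657 against 1223 GDD, tested over 17248 genes of which 71 were among the 80, 5 rose (7.04%; 12.5% of all genes) and 10 fell (14.1%; 14.9% of all genes). These counts rest on the scaling: without TMM, 2 rose and 24 fell, the median over the 71 genes was -1.09 in place of -0.52, and that over all genes -0.64 in place of -0.06. CPM are scaled by library total alone, as in the setting without TMM. In CPM 30 of the 71 genes had all 6 later libraries below all those at 1223 GDD and 1 had them all above. The share of all genes separated in this way is not given here, so no kernel fall particular to these genes is read from it. Without replicate 1, 2 or 3 of every group 2, 1 and 1 rose, and without replicate 2, 6 fell. PvKer.11.g277690 fell to between 1.75 and 6.58 CPM in the 6 later libraries, against 20.3, 26 and 14.5 CPM at 1223 GDD, with a TMM-scaled log2 fold change of -2.06 ± 0.38 (SE; edgeR, adjusted p = 7.05e-05). PvKer.14.g343530 fell to between 2.10 and 4.21 CPM, against 15.9, 15.6 and 15.9 CPM. PvKer.10.g250390 rose, with 27.9, 15.9, 17.6, 20, 13.8 and 32.1 CPM at 1508 and 1657 GDD against 6.61, 5.14 and 12.3 CPM at 1223 GDD; the call was lost without replicate 2 and with all labelled libraries, and that of PvKer.14.g343530 with all labelled libraries.

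The identifiers of the 80 genes carry every chromosome number from 1 to 15 that the table uses. The most, 13, carry number 1, which also holds 13.7% of the 9595 genes with both fruit maxima at 20 CPM or more. Number 10 holds 7.79% of those genes and 1 of the 80, and number 12 holds 5.03% of them and 7 of the 80. The files give no positions beyond the identifiers.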

How the data were processed

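Counts per gene identifier, as deposited by the authors, were used without change (121 libraries, 38315 identifiers). The submitters' processing notes name Trimmomatic 0.39 and Bowtie2 2.3.4.1; the counting tool, genome build, annotation and strand setting were not given in the sources used here, so reads from a gene and an antisense partner cannot be told apart. Another 1252 features named after contigs were left out of library sizes and tests. They held up to 58.1% of the counts of a kept kernel library at 2139 GDD and 26.7% at 1357 GDD. In kept shell libraries they held up to 9.49%, at 1223 GDD, and in kept hull libraries up to 7.4%, at 1508 GDD.

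CPM was computed over the PvKer identifiers. Tests were run in edgeR 4.0.16 (R 4.3.3) by quasi-likelihood after filterByExpr and TMM scaling, in 1 fit of the 78 kept shell and hull libraries and 1 of the 29 kept kernel libraries, with a mean per tissue and sampling point and no covariate. Standard errors were taken as the size of the log2 fold change over the root of the F statistic. Depth varied as given above. The code was tested on simulated counts. Alternatives were DESeq2 1.42.0, limma-voom (limma 3.58.1), other filters, library sets and call rules, scaling without TMM, and each replicate left out.

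The genes and lists were chosen with earlier results of these data known. Named genes are the 6 highest in hull and 4 highest in shell, up to 2 rises and 2 falls per comparison whose libraries do not overlap and whose higher side averages at least 10 CPM (for differences of changes, without that separation), and the neighbours of each threshold. Of 16 comparisons, 5 were added after values had been seen: those of 993 with 865 GDD and of 1657 with 1508 GDD.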

Additional observations from a re-analysis of the deposited data

Results flagged for a closer look

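Within each of the 8 groups of 4 libraries, all labelled libraries included, 7 measures were screened by Dixon's criterion. The screen looked for 1 library far from the rest of its group. Of the 56 combinations 14 were marked, where chance marks about 1 in 20 of independent measures. The genes measured singly are also part of the summed share, so that rate is no yardstick for the count. The library titled K32, labelled kernel at 2139 GDD and left out by the rule, accounted for 6 of the marks. Its summed share of the 80 genes was 0.571%, against 0.0352 to 0.04996% in the others. It had 651.4 CPM of PvKer.08.g192230, against 8.05 to 44.7 CPM in the others, and 1023 CPM of PvKer.04.g110490, against 35.3 to 56.4 CPM. It had 190.6 CPM of PvKer.08.g206510, 277.1 CPM of PvKer.09.g225760 and 129.3 CPM of PvKer.03.g086470, against at most 2.35, 17.6 and 27 CPM in the others.

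K38.2, labelled kernel at 2284 GDD and also left out, accounted for 6 more. Its summed share was 0.257%, against 0.0247 to 0.0314% in the others. The others held 7420246 to 9507694 PvKer counts. K38.2 was far shallower, as its wide counting interval below shows, so its CPM of single genes rest on far fewer counts. It had 232.2 CPM of PvKer.08.g192230, 395.2 CPM of PvKer.04.g110490, 88.9 CPM of PvKer.08.g206510, 93.8 CPM of PvKer.09.g225760 and 133.4 CPM of PvKer.03.g086470, against at most 5.36, 21, 1.28, 12.3 and 30.8 CPM in the others. The remaining marks were K24, a kept kernel library at 1881 GDD with 3.17 CPM of PvKer.08.g192230 against 27.3 to 30.9 CPM in the others, and S14, labelled shell at 1223 GDD and left out, with 266.1 CPM of PvKer.03.g086470 against 391.8 to 415.5 CPM in the others.

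Among libraries left out of the comparisons, 5 labelled kernel had a summed share above the highest of the kept kernel libraries, 0.0672%. These were K23 with 0.657% (95% Wilson interval 0.654 to 0.661%), K32 with 0.571% (0.568 to 0.575%), K38.2 with 0.257% (0.236 to 0.280%), K45 with 0.150% (0.140 to 0.161%) and K47 with 0.0706% (0.0617 to 0.0806%). The intervals cover counting error only. By overall profile K23 and K32 lay nearest to shell at 1759 GDD.

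Among the named genes, 4 were called for a difference between the shell change and the hull change in the window from 865 to 1106 GDD or in part of it, and 2 in the interval from 1223 to 1508 GDD; each is given as shell minus hull on the log2 scale, and the named genes are those with the largest differences, not all that were called. From 865 to 1106 GDD the difference was 3.40 for PvKer.07.g190930, 2.72 for PvKer.03.g081450 and -4.18 for PvKer.12.g282440. From 865 to 993 GDD it was 3.27 for PvKer.03.g081450, 3.27 for PvKer.07.g190930, -4.36 for PvKer.12.g282440 and -1.08 for PvKer.03.g086470. The values at 865 to 1106 GDD also chose the genes, so these are descriptions. From 1223 to 1508 GDD it was 1.52 for PvKer.08.g196840 and -1.63 for PvKer.06.g153990. The values for PvKer.12.g282440 rest on replicate 1 of shell at 865 GDD, without which they were -1.38 to 1106 GDD and -1.56 to 993 GDD.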

How the results depend on the processing

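Of 426 alternative counts, 333 lay within 1.5 times the reported one, and no direction of a named gene was reversed in 630 alternative values, of which 585 kept the call. The number of genes the rule takes, 80, was 28 with every labelled library, 155 with a kernel ratio of 5 and 38 with a ratio of 20; with a replicate left out it was 74 to 92. With 1 replicate number or shell library at 865 GDD left out in turn, the genes called higher and lower ranged as follows. At 1106 against 865 GDD they were 1 to 13 and 4 to 10 in shell, 0 to 2 and 12 to 25 in hull, and 1 to 22 and 0 to 2 for the difference of changes. At 993 against 865 GDD they were 18 to 41 and 7 to 9 in shell, 2 to 6 and 9 to 11 in hull, and 1 to 32 and 0 to 2 for the difference. At 1508 against 1223 GDD they were 0 to 1 and 10 to 32 in shell, 2 to 3 and 25 to 36 in hull, and 0 to 0 and 0 to 2 for the difference. At 1657 against 1508 GDD they were 7 to 15 and 5 to 7 in shell and 15 to 23 and 6 to 12 in hull. For shell against hull they were 3 to 3 and 8 to 16 at 1223 and 1357 GDD, 1 to 7 and 3 to 7 at 1508 and 1657 GDD, and 1 to 3 and 2 to 4 at 2007 and 2139 GDD. In kernel they were 1 to 5 and 6 to 11.

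With adjusted p alone as the rule, the counts were 3 higher in hull at 1106 against 865 GDD, 10 higher in hull at 993 against 865 GDD, 37 higher late in hull, 2 lower for the difference of changes to 1508 GDD, and for shell against hull 5 higher and 25 lower at 1223 and 1357 GDD, 5 higher and 12 lower at 1508 and 1657 GDD, and 7 higher and 6 lower at 2007 and 2139 GDD. With all labelled libraries they were 0 higher and 0 lower for the difference to 1508 GDD, 5 lower for shell against hull at 1223 and 1357 GDD, 7 higher for the difference to 993 GDD, and 1 higher and 5 lower in kernel. With 1 fit of the 3 tissues they were 5 lower in shell at 1106 GDD, 0 higher in shell at 1508 GDD, 0 higher for the difference to 1508 GDD, 7 higher for the difference to 993 GDD and 18 lower in kernel. With limma-voom they were 0 higher in shell at 1508 GDD, 3 higher and 17 lower in kernel, and 20 higher and 1 lower for the difference to 993 GDD; without a filter that last count was 1. The cause was not tested. With library sizes without TMM, chosen after seeing the data, 2 were higher and 24 lower in kernel. Labels do not say that the running numbers in the titles of shell and hull libraries pair them. Of 26 same-numbered pairs, deviations from the group means correlated above 0.1 in 7 and below -0.1 in 7 (median 0.032). In 10 pairs the shell library correlated best with its own number. With group means over 2 to 4 libraries, these correlations cannot decide whether same-numbered samples are paired. With those numbers as a replicate block, also added after seeing the data, the difference of changes was higher in 25 genes to 1106 GDD, higher in 38 and lower in 1 to 993 GDD, and higher in 0 and lower in 0 to 1508 GDD; for shell against hull 7 were lower at 1223 and 1357 GDD and 6 higher at 1508 and 1657 GDD. That paired fit leaves out unmatched libraries, replicate 3 of shell at 865 GDD among them. Depth limits the kernel values, where many counts are at or near 0, and each group holds 2 to 4 libraries.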
